A study of Homo sapiens with 10 samples.

Results

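The HOX cluster genes are the 39 protein-coding genes whose symbol is HOXA, HOXB, HOXC or HOXD followed by a number, found by gene identifier among 63299 rows of the deposited count tables. The HOXA cluster on chromosome 7 holds 11 of them, HOXB on chromosome 17 holds 10, HOXC on chromosome 12 holds 9 and HOXD on chromosome 2 holds 9. Polyadenylated RNA was sequenced from U2OS cells, a human osteosarcoma line, 48 h after transfection of a control siRNA pool (siCtrl, 5 libraries) or a pool against DDX41 (siDDX41, 5 libraries). Total counts ranged from 21807041 to 24896398 per library. Nothing in the labels says whether the replicates came from separate cultures, so p-values measure the spread between these libraries, which may be technical.

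HOX genes encode homeodomain transcription factors that give cells a position along the body axis. They lie in clusters in which the order of the genes follows the order of their expression domains, from the low-numbered anterior genes to the high-numbered posterior genes, and genes of the same number in different clusters form a paralog group. Polycomb complexes keep silent HOX genes silent, trithorax and MLL proteins keep active ones active, and adult and tumour cells often retain a HOX pattern from the tissue they came from.

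DDX41, a DEAD-box RNA helicase, was read first as a check of the labels. It was at 49.1, 49.4, 47.3, 47.2 and 50.5 CPM (read counts scaled to library size with TMM factors) in siCtrl replicates 1 to 5 and 11.5, 13.7, 12.4, 11.2 and 12.3 CPM in siDDX41 replicates 1 to 5. The groups did not overlap. The log2 fold change of siDDX41 against siCtrl was -1.99 ± 0.0491 (SE), which leaves 25.1% of the control level (exact two-sided permutation p = 0.00794, the smallest that 5 against 5 libraries can give). Of the osteoblast markers, SPARC was at 2807 ± 32.8 CPM (SD, n = 5), COL1A1 1875 ± 100.3 CPM and RUNX2 32.4 ± 1.25 CPM in siCtrl. SPP1 was at 19.0 ± 1.16 CPM and ALPL at 5.01 ± 0.811 CPM in siCtrl. COL1A2, which encodes the other chain of type I collagen, was at only 0.448 ± 0.203 CPM in siCtrl. SP7, BGLAP, IBSP and DMP1 each had a mean under 0.1 CPM in both groups, although single libraries of BGLAP were above it.

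In siCtrl, 29 of the 39 HOX genes had a mean of at least 1 TPM (transcript level: counts divided by exon length and scaled to the same sum in every library), the level taken here as expressed. These were 10 of 11 HOXA genes, 9 of 10 HOXB genes, 7 of 9 HOXC genes and 3 of 9 HOXD genes. HOXA2 at 0.846 ± 0.159 TPM was the exception in HOXA, and HOXB1, which had no count in siCtrl, was the exception in HOXB. In HOXC the genes under 1 TPM were HOXC5 and HOXC12. In HOXD the expressed genes formed one block, HOXD8, HOXD9 and HOXD10. HOXD11 lay just under the threshold at 0.989 ± 0.453 TPM, and a threshold of 0.5 TPM counted 6 HOXD genes.

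HOXB7 was the most abundant HOX transcript per length in siCtrl, with 94.6 ± 2.98 TPM (SD, n = 5), followed by HOXB9 with 77.9 ± 2.56 TPM and HOXC13 with 53.3 ± 1.71 TPM. HOXC9 followed with 30.8 ± 2.19 TPM, HOXC10 with 26.5 ± 1.44 TPM and HOXC6 with 24.8 ± 1.22 TPM. With canonical transcript lengths in place of summed exon lengths the first 3 kept their order, but HOXC6 (29.0 TPM) and HOXB3 (25.1 TPM) were above HOXC9 (19.4 TPM) and HOXC10 (17.8 TPM). By summed exon length HOXB7, HOXB9, HOXC13, HOXC9 and HOXC10 exceeded 26.4 TPM, the median of the 12439 protein-coding genes with at least 1 TPM, whereas the median of the 29 expressed HOX genes was 15.4 TPM. HOXA7, HOXB13, HOXB3 and HOXA10 lay between 19.8 and 21.2 TPM, and these 4 differed by less than the SD of HOXA7, 1.89 TPM. Across paralog groups, the 16 genes numbered 9 to 13 summed to 293 TPM, the 11 numbered 5 to 8 to 202 TPM and the 12 numbered 1 to 4 to 68.6 TPM. Under 3 counts in every library were HOXB1, HOXC12 and HOXD12, and 3 counts would allow up to 0.232, 0.176 and 0.223 TPM for them, covering counting error only. The other genes under the threshold were HOXC5 at 0.272 ± 0.152 TPM, HOXD1 at 0.716 ± 0.218 TPM, HOXD3 at 0.703 ± 0.148 TPM, HOXD4 at 0.0322 ± 0.0720 TPM and HOXD13 at 0.242 ± 0.110 TPM in siCtrl.

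**Figure D1:**
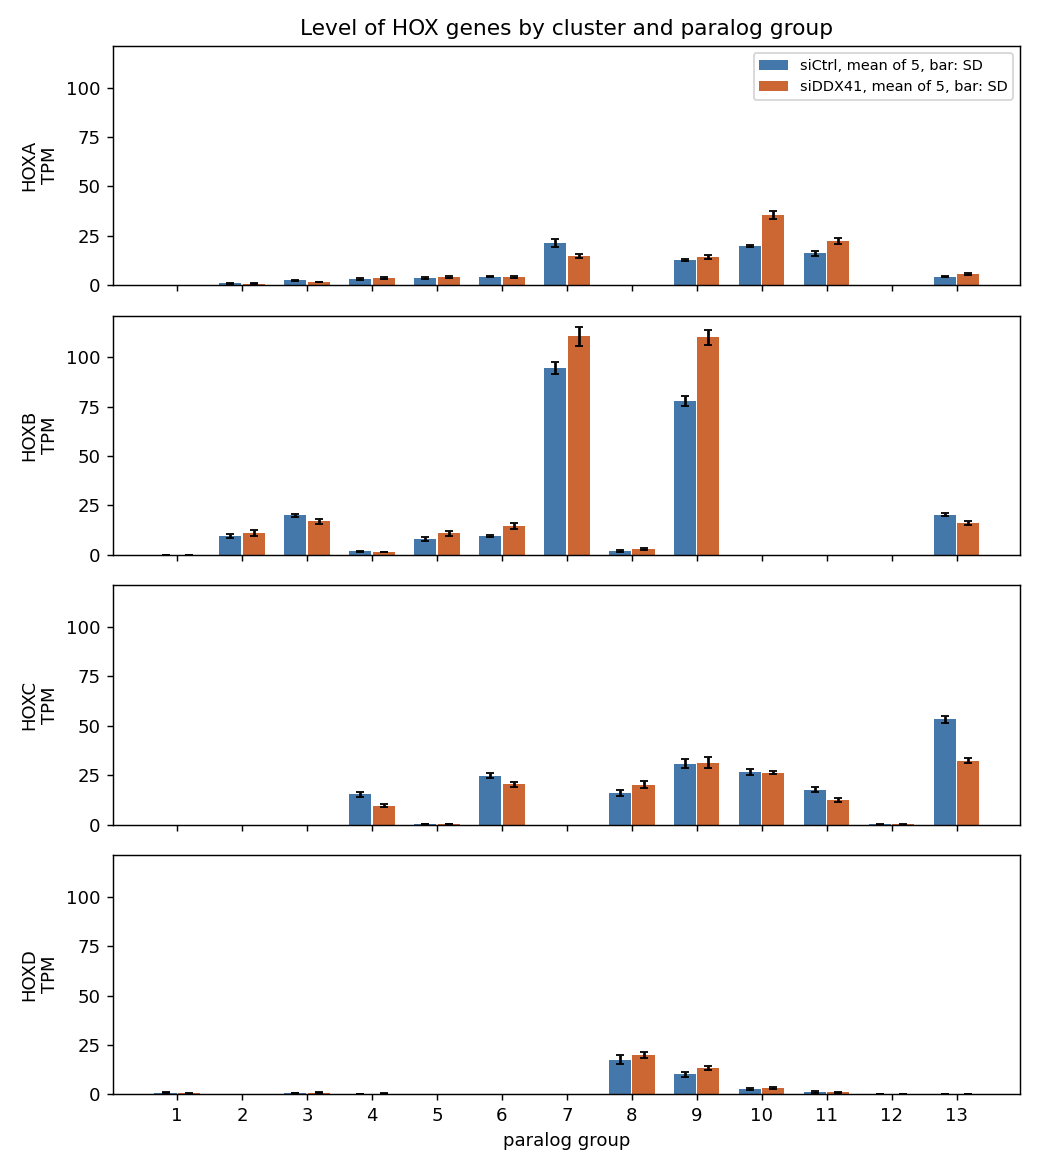
Mean level of 38 of the 39 HOX genes in TPM (vertical axis) by paralog group (horizontal axis) in siCtrl and siDDX41, with bars for the SD of 5 libraries and 1 panel per cluster. HOXB7 and HOXB9 reach 94.6 and 77.9 TPM in siCtrl, and the expressed part of HOXD lies at paralog groups 8 to 10.

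After DDX41 knockdown, 31 HOX genes had enough counts to be tested, and 14 of them rose and 8 fell at an adjusted p under 0.01 (edgeR quasi-likelihood test, adjusted over all 16143 tested genes). Among all tested genes 30.3% rose and 32.1% fell, against 45.2% and 25.8% of the tested HOX genes. With a log2 fold change of at least 0.5 added, 6 HOX genes rose (19.4%, against 9.81% of all tested genes) and 3 fell (9.68%, against 15.7%). The 5 siCtrl and 5 siDDX41 libraries did not overlap for 19 of the 31 HOX genes, or 61.3%, against 55.9% of all tested genes. The median log2 fold change was 0.25 over the tested HOX genes and -0.00 over all tested genes. The untested HOX genes were HOXA2, HOXB1, HOXC5, HOXC12, HOXD1, HOXD4, HOXD12 and HOXD13. In bulk RNA, fewer cells of a kind and less RNA per cell cannot be told apart.

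The calls were counted by cluster, without a test of the difference between clusters. Of 10 tested HOXA genes 5 rose and 2 fell, of 9 HOXB genes 6 rose and 2 fell, of 7 HOXC genes 1 rose and 4 fell, and of 5 HOXD genes 2 rose and 0 fell in edgeR (0 also at an unadjusted p under 0.05 and in DESeq2), against 30.3% and 32.1% of all tested genes. Summed over its genes, HOXC had 175, 189, 187, 187 and 186 TPM in the siCtrl libraries and 148, 158, 152, 149.5 and 156 TPM in the siDDX41 libraries. HOXB had 243, 248, 239, 243 and 244 TPM in siCtrl and 297, 300.5, 287, 293 and 296 TPM in siDDX41. HOXA had 100.1 to 105.2 TPM in siCtrl and 117.6 to 128.7 TPM in siDDX41, and HOXD had 31.0 to 37.2 TPM and 37.7 to 39.9 TPM. The HOXC sums were lower in all 5 siDDX41 libraries than in any siCtrl library, and the sums of the other 3 clusters were higher. The mean HOXC sum went from 184.7 to 152.7 TPM, and HOXC13 alone from 53.3 to 32.4 TPM. HOXC made up 32.8% of the summed HOX TPM in siCtrl and 25.1% in siDDX41.

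**Figure D2:**
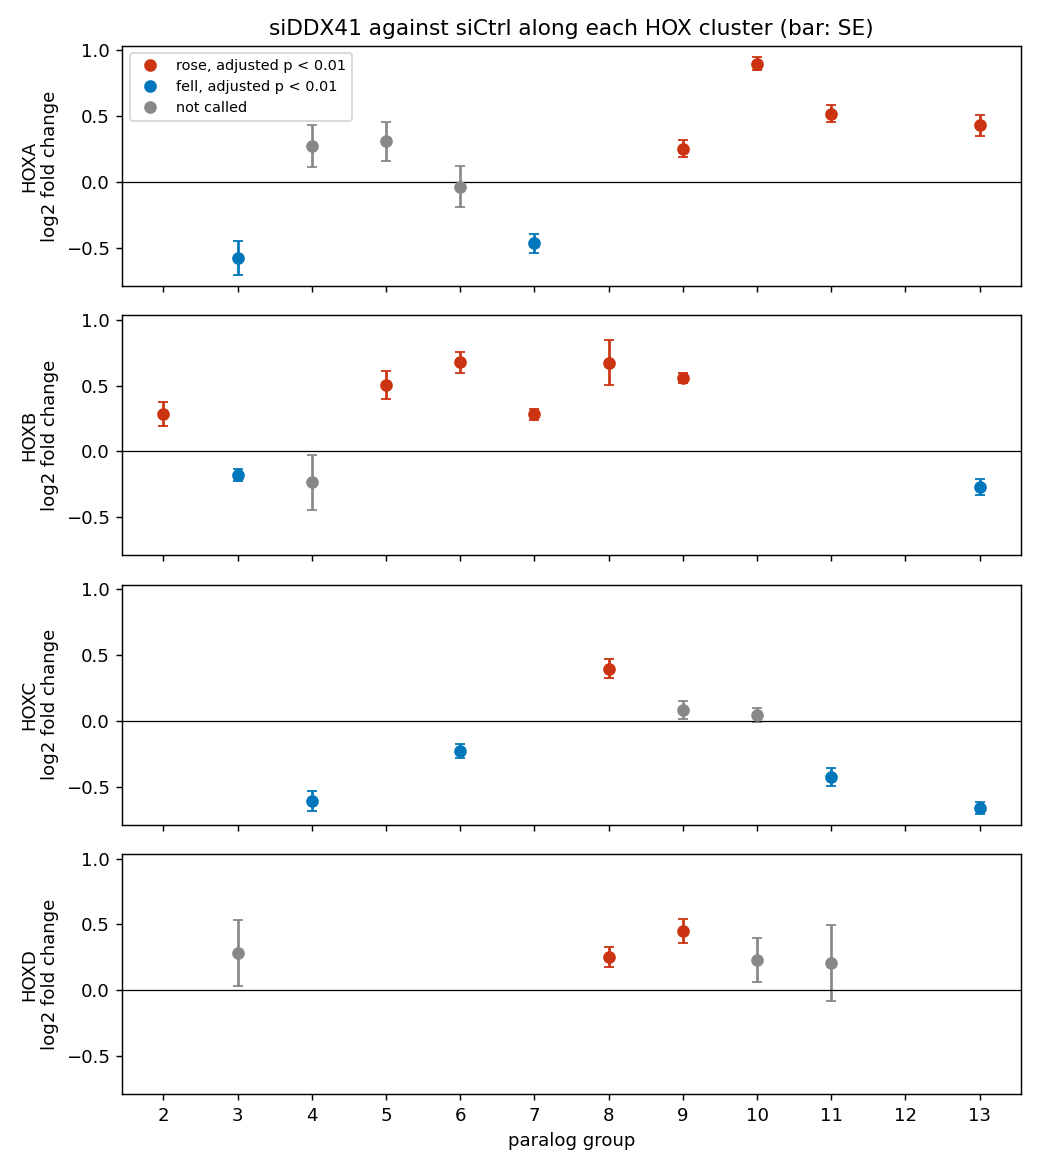
Log2 fold change of siDDX41 against siCtrl (vertical axis, bar: SE) for 30 of the 31 tested HOX genes by paralog group (horizontal axis), 1 panel per cluster. Colours mark genes that rose, fell or were not called at an adjusted p under 0.01, and HOXA10 has the highest value, 0.90, and HOXC13 the lowest, -0.66.

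In GENCODE 44 on hg38, HOXA10 (ENSG00000253293.4) lies at chr7:27170605-27180261 on the minus strand, HOXB9 (ENSG00000170689.9) at chr17:48621156-48626358 on the minus strand, HOXC13 (ENSG00000123364.4) at chr12:53938831-53946544 on the plus strand and HOXD9 (ENSG00000128709.12) at chr2:176122719-176124937 on the plus strand.

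In the HOXA cluster the posterior genes rose while HOXA7 and HOXA3 fell. HOXA10 was at 16.3, 17.1, 16.3, 17.7 and 16.4 CPM in siCtrl replicates 1 to 5 and 31.4, 28.1, 31.8, 34 and 30.9 CPM in siDDX41 replicates 1 to 5. Every siDDX41 library was above every siCtrl library, and the log2 fold change of HOXA10, a gene known for its part in uterine and limb development, was 0.90 ± 0.0509 (SE, edgeR adjusted p = 1.23e-15). HOXA11 was at 9.27, 10.9, 9.38, 9.37 and 10.1 CPM in siCtrl replicates 1 to 5 and 14.7, 12.9, 15, 14.7 and 13.2 CPM in siDDX41 replicates 1 to 5. HOXA11, which patterns the forearm skeleton, rose by 0.52 ± 0.0650 on the log2 scale (edgeR adjusted p = 3.44e-08) with no overlap of the groups. HOXA13 rose by 0.43 and HOXA9 by 0.25, both without overlap.

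HOXA7 was at 11.1, 11.7, 13.2, 11.2 and 11.1 CPM in siCtrl replicates 1 to 5 and 9.66, 8.56, 7.82, 8.22 and 8 CPM in siDDX41 replicates 1 to 5. HOXA7, the HOXA gene with the highest siCtrl TPM by summed exon length (by canonical transcript length HOXA10 was higher, 16.1 against 14.2 TPM), fell by 0.47 ± 0.0710 on the log2 scale (edgeR adjusted p = 1.09e-06), and its groups did not overlap. HOXA3 was at 2.82, 2.53, 2.1, 2.48 and 2.42 CPM in siCtrl replicates 1 to 5 and 1.52, 1.61, 1.89, 1.62 and 1.62 CPM in siDDX41 replicates 1 to 5. HOXA3, a gene of pharyngeal arch development, was a low-count gene that fell by 0.58 ± 0.129 on the log2 scale (edgeR adjusted p = 2.29e-04) without overlap. HOXA4, HOXA5 and HOXA6 did not pass the test, with log2 fold changes of 0.27, 0.31 and -0.03.

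Exons of HOXA7 overlap an antisense gene, HOXA-AS3, over 62.5% of their length. The library kit was stranded, but the strand setting of the counting is not given in the sources used here. Reads of such pairs may therefore have been counted together or left out. HOXA-AS3 itself had a mean of 2.7 counts per library against 238 for HOXA7. HOXA10 shares 16.4% of its exon length and HOXA9 13.9% with HOXA10-AS, which had a mean of 0.5 counts. On the same strand HOXA9 shares 13.1% and HOXA10 9.93% with ENSG00000257184, which had a mean of 0.0 counts. HOXA11 shares 27.2% with HOXA11-AS, which had 43.1 counts against 282 for HOXA11. HOXA3 shares 10.6% with HOXA-AS2, which had 39.1 counts against 49.0 for HOXA3. HOXD8 shares 24.4% with HOXD-AS2, which had 51.5 counts against 271 for HOXD8. The counts behind the calls of such genes may thus include antisense reads or lack reads of the shared bases. Among the 16 tested HOX genes whose exons overlap other genes over at most 10% of their length, 9 rose and 3 fell, against 30.3% and 32.1% of all tested genes.

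The neighbouring promoters of HOXA7, which fell, and of HOXA9, HOXA10 and HOXA11, which rose, are printed because the direction changes between them. Each window runs from 250 bases before to 50 after a RefSeq transcript start (GRCh38.p14, minus strand) and is written 5′ to 3′. The windows are chr7:27156626-27156925 for HOXA7, chr7:27165488-27165787 for HOXA9, chr7:27174271-27174570 for HOXA10 and chr7:27185183-27185482 for HOXA11. Capitals mark the CCAAT box (CCAAT), the TATA box (TATAAA), the GC box (GGGCGG) and a site form of HOX and PBX proteins (TGATNNAT) on either strand, a match on the opposite strand appearing as its reverse complement, and no matches overlapped in these windows.
HOXA7: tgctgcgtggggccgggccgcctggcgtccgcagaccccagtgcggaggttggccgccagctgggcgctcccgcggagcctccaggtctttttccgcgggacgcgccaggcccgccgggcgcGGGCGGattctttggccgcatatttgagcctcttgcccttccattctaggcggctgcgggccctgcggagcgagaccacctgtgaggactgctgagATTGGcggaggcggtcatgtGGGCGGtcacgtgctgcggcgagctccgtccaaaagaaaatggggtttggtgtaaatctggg
HOXA9: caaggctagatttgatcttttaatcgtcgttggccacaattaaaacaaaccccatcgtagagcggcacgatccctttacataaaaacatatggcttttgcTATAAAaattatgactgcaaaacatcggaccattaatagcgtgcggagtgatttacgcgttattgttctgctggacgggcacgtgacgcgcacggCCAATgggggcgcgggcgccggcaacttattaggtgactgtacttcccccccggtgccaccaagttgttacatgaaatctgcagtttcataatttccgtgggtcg
HOXA10: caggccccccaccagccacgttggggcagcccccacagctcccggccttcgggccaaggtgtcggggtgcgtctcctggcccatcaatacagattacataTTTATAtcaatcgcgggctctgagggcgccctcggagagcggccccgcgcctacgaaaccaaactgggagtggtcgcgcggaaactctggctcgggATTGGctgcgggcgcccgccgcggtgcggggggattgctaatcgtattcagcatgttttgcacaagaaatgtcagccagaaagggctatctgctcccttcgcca
HOXA11: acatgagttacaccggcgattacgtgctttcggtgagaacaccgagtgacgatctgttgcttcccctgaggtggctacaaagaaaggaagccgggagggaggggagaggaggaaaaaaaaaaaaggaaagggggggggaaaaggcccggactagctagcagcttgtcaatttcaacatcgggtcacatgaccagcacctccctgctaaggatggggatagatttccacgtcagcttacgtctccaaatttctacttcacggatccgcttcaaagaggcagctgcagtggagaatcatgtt

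The HOXA9 and HOXA10 windows each held 1 CCAAT box and 1 TATA box, the HOXA7 window held 1 CCAAT box and 2 GC boxes, and the HOXA11 window held no match to the 4 motifs. The CCAAT box letters occurred in 34.6% of all 35116 promoter windows of this length, those of the TATA box in 11.5%, of the GC box in 45.0% and of the HOX and PBX form in 7.40%. Of the 20 HOX genes with a promoter entry, 17 held the CCAAT box, 4 the TATA box, 10 the GC box and 3 the HOX and PBX form. HOXC4 and HOXC5 share 1 window, 36947 and 16162 bases from their canonical starts, so that window counts once for each gene, and HOXB1 is the only HOXB gene with an entry. The GC content was 68.0% for HOXA7, 48.0% for HOXA9, 62.7% for HOXA10 and 51.3% for HOXA11, against a median of 58.7% for all windows. A match describes the letters of a window and is not a measured binding site.

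In the HOXB cluster a run of genes from HOXB5 to HOXB9 rose. HOXB9 was at 46.2, 46.2, 42.9, 48.2 and 46.2 CPM in siCtrl replicates 1 to 5 and 67.1, 65.5, 66.8, 72.2 and 66.8 CPM in siDDX41 replicates 1 to 5. HOXB9 rose by 0.56 ± 0.0370 on the log2 scale (edgeR adjusted p = 4.83e-14), with siDDX41 replicate 4 the highest library and no overlap. HOXB6 was at 5.72, 4.98, 6.06, 5.61 and 5.92 CPM in siCtrl replicates 1 to 5 and 9.75, 10.3, 8.1, 8.01 and 9.07 CPM in siDDX41 replicates 1 to 5. HOXB6 rose by 0.68 ± 0.0833 (edgeR adjusted p = 2.58e-08) without overlap, and shares 16.6% of its exon length with HOXB3 on the same strand.

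HOXB7 was at 33, 34.4, 32.2, 32.1 and 32.3 CPM in siCtrl replicates 1 to 5 and 42.6, 39.7, 37.5, 39.1 and 40.8 CPM in siDDX41 replicates 1 to 5. HOXB7, the most abundant member per length, rose by 0.28 ± 0.0410 (edgeR adjusted p = 4.63e-07), a smaller change than that of HOXB9 but also without overlap. HOXB8 was at 0.735, 0.816, 1.3, 1.2 and 1.17 CPM in siCtrl replicates 1 to 5 and 1.79, 1.65, 1.41, 1.92 and 1.58 CPM in siDDX41 replicates 1 to 5. HOXB8 rose by 0.68 ± 0.170 (edgeR adjusted p = 8.58e-04), and siCtrl replicates 1 and 2 were the lowest of its libraries. HOXB5 rose by 0.50 ± 0.105 (edgeR adjusted p = 1.05e-04). Outside that run HOXB3 fell by 0.18 with overlapping groups, and HOXB13, a posterior gene known from the prostate, fell by 0.27 without overlap. HOXB2 had a log2 fold change of 0.29 (edgeR adjusted p = 0.00777) that lost its call in DESeq2 and without siCtrl replicate 2, 4 or 5 or siDDX41 replicate 2, 3 or 5, with adjusted p between 0.0121 and 0.0364. HOXB4 was not called, at -0.24 ± 0.211.

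In the HOXC cluster genes at both ends fell. HOXC13 was at 27.7, 28.9, 27.6, 30 and 29.2 CPM in siCtrl replicates 1 to 5 and 17.9, 18.4, 17.7, 19.3 and 17.4 CPM in siDDX41 replicates 1 to 5. HOXC13, a regulator of hair and nail keratins, fell by 0.66 ± 0.0465 on the log2 scale (edgeR adjusted p = 1.9e-13), and the groups were far apart. HOXC4 was at 9.19, 9.47, 10.8, 9.24 and 9.75 CPM in siCtrl replicates 1 to 5 and 5.84, 6.99, 6.81, 6.13 and 5.87 CPM in siDDX41 replicates 1 to 5. HOXC4, at the anterior end, fell by 0.61 ± 0.0749 (edgeR adjusted p = 2.43e-08) without overlap, and shares 17.5% of its exon length with HOXC6. HOXC11 was at 12.3, 12.1, 13.4, 13.8 and 13.9 CPM in siCtrl replicates 1 to 5 and 8.6, 9.64, 10.3, 9.63 and 10.5 CPM in siDDX41 replicates 1 to 5. HOXC11 fell by 0.43 ± 0.0657 (edgeR adjusted p = 1.32e-06) without overlap.

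HOXC6 fell by 0.23 and HOXC8 rose by 0.40, both without overlap. HOXC9 and HOXC10 were not called, with log2 fold changes of 0.08 ± 0.0671 and 0.04 ± 0.0555. HOXC8 was the HOXC gene that rose, between members that fell or were not called.

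The HOXD cluster had the fewest expressed genes. HOXD8 was at 10.5, 8.98, 12.6, 9.93 and 10.4 CPM in siCtrl replicates 1 to 5 and 13.5, 10.9, 12.4, 13.6 and 12.1 CPM in siDDX41 replicates 1 to 5. HOXD8 had a log2 fold change of 0.25 ± 0.0773 (edgeR adjusted p = 0.00471) with overlapping groups, and lost its call without siCtrl replicate 1, 2, 4 or 5 or siDDX41 replicate 1 or 4, with adjusted p between 0.0103 and 0.0179. HOXD9 was at 3.84, 4.33, 3.95, 5.09 and 4.17 CPM in siCtrl replicates 1 to 5 and 5.93, 6.51, 5.68, 5.75 and 5.36 CPM in siDDX41 replicates 1 to 5. HOXD9 rose by 0.45 ± 0.0912 (edgeR adjusted p = 6.76e-05) without overlap. HOXD3, HOXD10 and HOXD11 were not called, with log2 fold changes of 0.28, 0.23 and 0.21 and SE of 0.252, 0.166 and 0.287. With each library left out these values ranged from 0.05 to 0.43, 0.10 to 0.33 and 0.01 to 0.43.

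**Figure D3:**
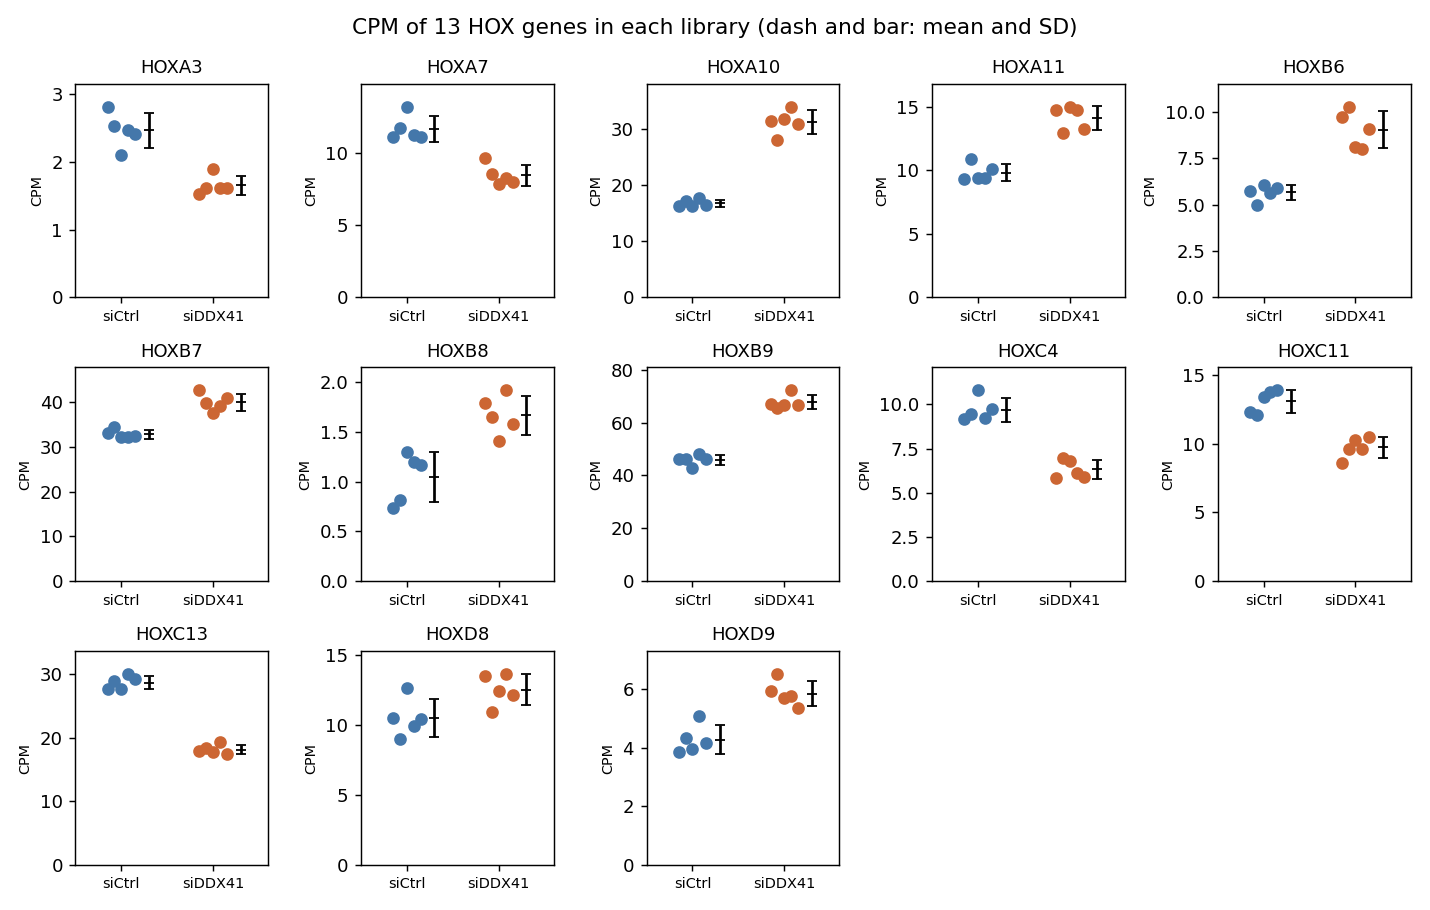
CPM (vertical axis) of 13 HOX genes in each siCtrl and siDDX41 library, with a dash and bar for the mean and SD of 5 libraries. HOXA10 lies between 16.3 and 17.7 CPM in siCtrl and between 28.1 and 34 CPM in siDDX41, and among the 13 genes the groups overlap for HOXD8.

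Members of paralog groups 6, 7, 11 and 13 moved in different directions. In paralog group 13, HOXA13 rose and HOXB13 and HOXC13 fell. In group 11, HOXA11 rose and HOXC11 fell, in group 7, HOXB7 rose and HOXA7 fell, and in group 6, HOXB6 rose and HOXC6 fell. All 3 members of group 8, HOXB8, HOXC8 and HOXD8, were called as higher, although the call of HOXD8 was lost without some libraries.

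Neighbouring genes were compared directly, since a ratio of neighbours tests whether the change differs between them. Of 27 pairs of neighbouring tested HOX genes, ordered by gene start, the ratio changed for 13, or 48.1%, at a limma adjusted p under 0.01, against 65.2% of the 13107 neighbouring protein-coding pairs of the genome. The HOXB13 to HOXB9 ratio was 0.301 to 0.313 in the siCtrl libraries and 0.152 to 0.193 in the siDDX41 libraries, a log2 change of -0.83 ± 0.0666 (limma adjusted p = 3.93e-09). The HOXC4 to HOXC8 ratio was 0.978 to 1.29 in siCtrl and 0.477 to 0.652 in siDDX41 (limma adjusted p = 6.4e-07). The HOXA9 to HOXA7 ratio was 0.667 to 0.783 in siCtrl and 1.15 to 1.33 in siDDX41, a log2 change of 0.71 ± 0.100 (limma adjusted p = 5.34e-06). The HOXA10 to HOXA9 ratio changed by 0.65 ± 0.0879 (limma adjusted p = 3.38e-06), so that HOXA10 rose more than HOXA9. Ordered instead by the start of the canonical transcript, which moves HOXA3, HOXB3 and HOXC6, 9 of 27 pairs changed. In that order HOXC6 lies between HOXC8 and HOXC4, which are then not neighbours. There the HOXC6 to HOXC8 ratio had a log2 change of -0.625 (limma adjusted p = 4.7e-05). That of HOXC4 to HOXC6 was -0.38 (limma adjusted p = 0.0027).

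Non-coding genes inside the clusters were read beside the coding members. Of 11 tested, 0 rose in edgeR (0 also at an unadjusted p under 0.05 and in DESeq2), 3 fell and 8 were not called, against 30.3% and 32.1% of all tested genes that rose and fell, with a median log2 fold change of -0.20 against -0.00 over all tested genes. HOTAIR was at 9.31, 8.65, 10.9, 10.2 and 10.7 CPM in the siCtrl libraries and 5.84, 5.99, 6.85, 6.26 and 6.51 CPM in the siDDX41 libraries. HOTAIR, a long non-coding RNA of the HOXC cluster, fell by 0.66 ± 0.0774 on the log2 scale (edgeR adjusted p = 1.11e-08). HOXC13-AS was at 4.08, 3.55, 4.33, 4.06 and 4.46 CPM in the siCtrl libraries and 1.79, 1.56, 1.77, 2.04 and 1.02 CPM in the siDDX41 libraries. HOXC13-AS, antisense to HOXC13, fell by 1.32 ± 0.132 (edgeR adjusted p = 4.17e-10). HAGLR was at 5.23, 5.02, 3.95, 5.22 and 4.33 CPM in the siCtrl libraries and 1.75, 2, 1.41, 2.51 and 1.62 CPM in the siDDX41 libraries. HAGLR, in the HOXD cluster, fell by 1.36 ± 0.129 (edgeR adjusted p = 1.52e-10), while HOXD8 and HOXD9 had positive log2 fold changes. None of these 3 overlapped between the groups.

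TALE homeodomain proteins bind DNA together with HOX proteins. Of 7 tested TALE genes 0 rose in edgeR (1 at an unadjusted p under 0.05 and 0 in DESeq2) and 4 fell, against 30.3% and 32.1% of all tested genes, with a median log2 fold change of -0.16. MEIS1 fell by 0.49 ± 0.0505 (edgeR adjusted p = 8.71e-10) without overlap. PBX3 and MEIS3 fell by 0.16 and 0.18.

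**Figure D4:**
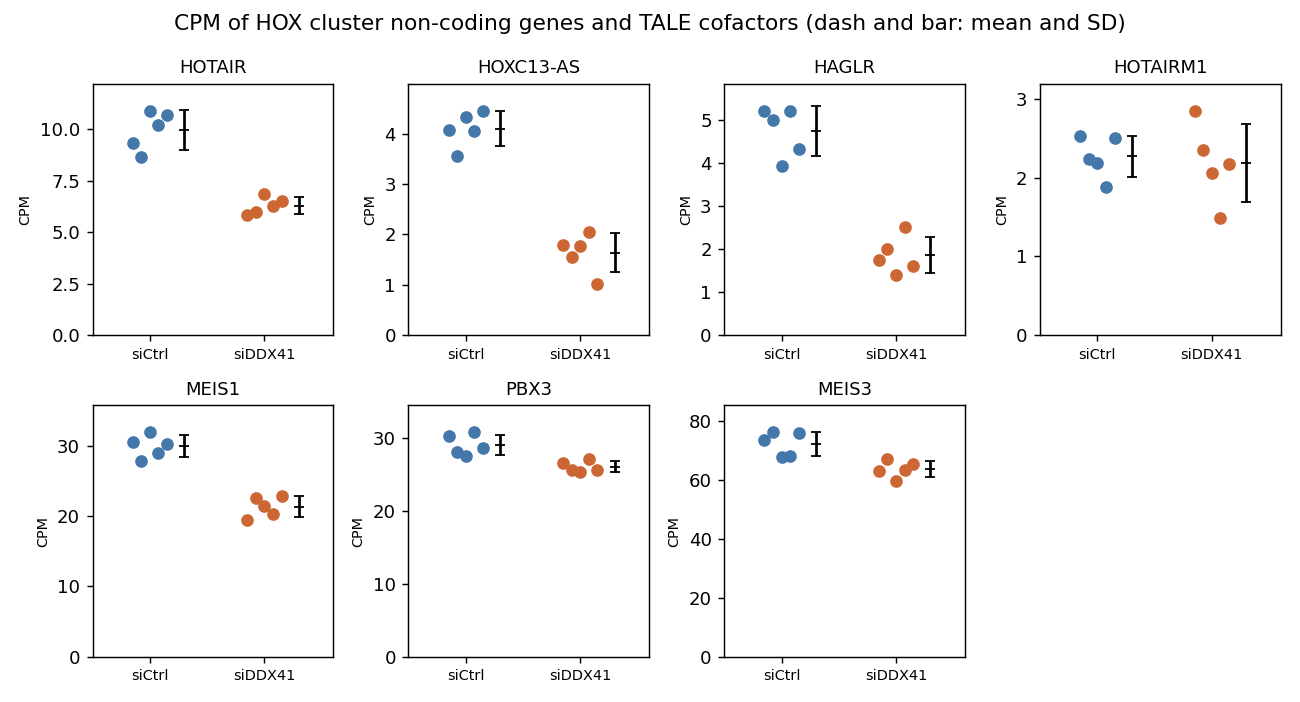
CPM (vertical axis) of 4 non-coding genes of the HOX clusters and 3 TALE cofactor genes in each siCtrl and siDDX41 library, with a dash and bar for the mean and SD of 5 libraries. HOTAIR, HOXC13-AS, HAGLR and MEIS1 lie lower in every siDDX41 library, and HOTAIRM1 overlaps between the groups.

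Genes that flank the clusters moved in both directions. Of 14 tested, 4 rose and 7 fell, against 30.3% and 32.1% of all tested genes, with a median log2 fold change of -0.12. HNRNPA1, near HOXC, fell by 0.55 ± 0.0278 (edgeR adjusted p = 1.07e-16), and MTX2, near HOXD, rose by 0.42 ± 0.0375 (edgeR adjusted p = 4.94e-11). TAX1BP1, beyond the posterior end of HOXA, rose by 0.38 ± 0.0287 (edgeR adjusted p = 1.13e-12).

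Of the Polycomb genes, 26 were tested, of which 8 rose and 9 fell, against 30.3% and 32.1% of all tested genes, with a median of 0.04. The 4 with the smallest adjusted p all fell, PHF19 by 0.79 and JARID2 by 0.65, both PRC2 accessory proteins, and RBBP4 and CBX2 each by 0.48. The 8 that rose did so by 0.14 to 0.52. Of 24 trithorax, MLL and related genes, 9 rose and 7 fell, against the same shares of all tested genes, with a median of 0.06. The 4 with the smallest adjusted p all fell, MLLT1 by 0.85, MEN1, which encodes menin, by 0.66, and ASH2L and KMT2B each by 0.32. The 9 that rose did so by 0.10 to 0.52, and among them, chosen after the values were seen, were the other MLL-family methyltransferases KMT2A, KMT2C and KMT2D with 0.49, 0.41 and 0.52.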

How the data were processed

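Raw counts per gene were deposited by the authors for 10 libraries. Per the submitters' processing notes, reads were demultiplexed with bcl2fastq, aligned to hg38 with STAR 2.7 and counted with featureCounts 1.6. The library kit was stranded, but the strand setting of the counting and the treatment of reads with several alignments are not given in the sources used here. Members and gene lists were chosen with earlier results of these data known. Of 63299 rows, 45 Y copies of pseudoautosomal genes holding 0 reads were left out. Symbols and lengths came from GENCODE 44, which matched 56948 rows. It is a later release than the one the methods name for mapping, so the lengths and exon overlaps may differ from those behind the counts. Counts were tested with edgeR 4.0.16 (R 4.3.3, filterByExpr, TMM, robust quasi-likelihood fit, Benjamini-Hochberg adjustment over all tested genes, threshold 0.01). Ratios of neighbours were tested with limma 3.58.1 on log2 CPM with a prior count of 2. TPM used summed exon lengths. Exact tests used scipy 1.17.1. Of the steps, only the edgeR, DESeq2 and neighbour-ratio fits were tried on simulated counts with 1.5-fold changes. There edgeR recovered 168 of 200 changed genes with 4 false calls and DESeq2 159 of 200 with 3. The neighbour-ratio test recovered 249 of 399 changed pairs with 2 false calls. Alternatives included DESeq2 1.42.0, other scalings and filters, the replicate number as a block and each library left out. Library values are given for the HOX gene with the highest siCtrl TPM in each cluster and for up to 3 called genes per cluster with the largest absolute log2 fold change among those with at least 1 CPM. Of other lists, up to 4 tested members with the smallest adjusted p could be named. So could members of at least 5 CPM with an absolute log2 fold change above 1, and any tested flanking or non-coding gene. Named outside this rule were KMT2A, KMT2C and KMT2D, chosen after the values were seen, and the markers COL1A1 and CDH1. The markers COL1A2, SP7, BGLAP, IBSP, DMP1, CD3E and HBB were also named, although not tested. So were the antisense genes HOXA-AS3 and HOXA10-AS and the overlapping gene ENSG00000257184. In all, 1 HOX gene and 1 TALE gene are counted in the totals but not reported here by name.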

Additional observations from a re-analysis of the deposited data

Results flagged for a closer look

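In 4 of 64 groups of 5 libraries, a single library stood apart from the others. Chance gives about 1 in 20 groups, or 3.2 here. HOXA3 was 1.89 CPM in siDDX41 replicate 3, against 1.52 to 1.62 CPM in the other siDDX41 libraries. HOXA6 was 1.47 CPM in siDDX41 replicate 1, against 1.15 to 1.22 CPM. HOXA7 was 13.2 CPM in siCtrl replicate 3, against 11.1 to 11.7 CPM. HOXB9 was 72.2 CPM in siDDX41 replicate 4, against 65.5 to 67.1 CPM.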

How the results depend on the processing

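The numbers of HOX genes that rose (14) and fell (8) were 13 and 8 with DESeq2, 14 and 8 with RLE or upper-quartile factors and with either other filter, and 12 to 14 and 8 with each library left out. With a log2 fold change of at least 0.5 they were 6 and 3, and over all tested genes 1584 and 2534 in place of 4890 and 5178, since fewer genes meet a stricter rule. Among members whose exons overlap other genes over at most 10% of their length they were 9 and 3, since 16 genes are counted in place of 31. A threshold of 0.5 TPM counted 6 HOXD genes as expressed in place of 3. HOXA6, which was not called, had log2 fold changes from -0.10 to 0.02 with each library left out and changed sign, to 0.017, without siCtrl replicate 1. Replicate numbers are shared between the groups, and deviations of same-numbered libraries correlated between -0.0524 and 0.0446. These values show no shared effect of a number, but cannot tell whether same-numbered libraries were prepared together. In the fit with a replicate block, 4790 genes rose and 5097 fell, 14 HOX genes rose and 8 fell, and 12 neighbour ratios changed in place of 13, and 1 siCtrl library correlated best with its own number. The 9 neighbour ratios under canonical ordering came from an alternative chosen after seeing the data. HOXD3, HOXD10 and HOXD11, which were not called, had SE from 0.166 to 0.287, and HOXB8, which was called, 0.170. With each library left out the log2 fold changes of HOXD3, HOXD10 and HOXD11 ranged from 0.05 to 0.43, 0.10 to 0.33 and 0.01 to 0.43, and 0 of these fits called them. Of the other genes not called, HOXB4 ranged from -0.33 to -0.15, HOXC9 from 0.04 to 0.12 and HOXC10 from 0.02 to 0.07 over the alternatives.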

Other observations

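Other homeobox and retinoid genes were counted beside the HOX genes. Over all tested genes 30.3% rose and 32.1% fell. Of 13 tested ParaHOX and other ANTP-class homeobox genes, 4 rose and 3 fell in edgeR, with a median log2 fold change of -0.04. NKX3-2, a gene of cartilage development, went from 3.42 ± 0.528 to 14 ± 1.92 CPM (SD, n = 5) and BARX2 from 3.74 ± 0.359 to 0.577 ± 0.165 CPM. MSX1 rose by 0.79 on the log2 scale. Of 7 tested retinoic acid receptor, retinoid and CDX genes, 1 rose and 4 fell, against 30.3% and 32.1% of all tested genes, with a median of -0.53. RARG fell by 1.39 ± 0.0436 (SE, edgeR adjusted p = 9.97e-22), CYP26B1, which degrades retinoic acid, fell by 1.19 ± 0.0553 (edgeR adjusted p = 1.17e-17), RXRA fell by 0.74 and CRABP2 by 0.53.

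Of 5 tested osteoblast lineage genes, 2 rose and 2 fell. Of 5 tested epithelial genes 2 rose and 1 fell, of 2 tested blood genes 1 fell, and both tested endothelial genes fell, against 30.3% of all tested genes that rose and 32.1% that fell. In the epithelial list KRT18 went from 444 ± 17.7 to 874 ± 45.3 CPM and KRT8 rose by 0.46 on the log2 scale, while KRT5 fell by 3.41 from a mean of 5.24 CPM, and EPCAM and CDH1 were not called. The summed TPM of this list, 982.1 to 1074 in the siCtrl libraries and 1595 to 1784 in the siDDX41 libraries, was almost wholly that of KRT18 and KRT8. In the blood list CD34 went from 30.4 ± 1.49 to 4.66 ± 0.900 CPM, PTPRC was not called at 0.69, and CD3E and HBB had no count. Their part in the HOX results was not tested.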
